A study of Mus musculus with 121 samples.

Results

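The 8 h change in mRNA levels under the LH protocol was measured in 7 of the 62 libraries of the series, 3 collected at the first RNA collection (0 h) and 4 at the third (8 h). All came from a single fibroblast line, derived from ears of mice that carry a luciferase fusion at the endogenous Per2 locus (genotype PER2::LUC sv), so that genotype and line were shared by every group and nothing here compares lines or animals. LH stands for cycles in which medium poor in glucose and without insulin (L) alternated every 12 h with medium rich in both (H). HL ran the same media in the opposite order, and HH received H medium at every change. After 3 days of such cycles the cells were left without medium changes for 12 h, and RNA was then collected every 4 h for 1 day, so the hours used here are counted from the first collection.

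The members were chosen by the library number in the deposited data and by the name that the study's summary of sequenced reads gives that number, which lists 57 of the 62 libraries. It names 3 consecutive numbers as LH collection 1, replicates 2, 3 and 4, and 4 consecutive numbers as LH collection 3, replicates 1 to 4. The sample titles give the same 7 libraries to HL, collections 2 and 3 for the 0 h libraries and collections 4 and 5 for the 8 h libraries. The 2 sources cannot both hold, and every direction given below for "LH 0 h" and "LH 8 h" follows the numbers. The HH libraries carry the same group by title and by number. The hours rest on collection order, because the clock-hour field in the names of LH libraries differs from that of HH and HL at collections 3 and 4. The labels do not say whether the replicates were separate cultures. The study describes the replicates of its conditions as biological. The p-values measure the spread between these libraries.

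The molecular clock of mammalian cells is a transcriptional feedback loop. CLOCK and BMAL1 (encoded by Arntl) activate genes through the E-box, among them the Per and Cry repressors, the nuclear receptors Nr1d1 and Nr1d2 (REV-ERB alpha and beta) and the output activators Dbp and Tef. The REV-ERB proteins repress Arntl, Nfil3 and Cry1 through a response element that the activating ROR receptors share, and DBP, TEF and the repressor NFIL3 compete for the D-box. In fibroblasts these genes cycle with distinct phases.

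The E-box (CACGTG), the core of the REV-ERB and ROR element (AGGTCA, or TGACCT on the other strand) and the D-box (TTATGTAA or TTACGTAA) were searched on both strands in the 250 bases before the start of each gene in RefSeq (GRCm38.p6). Of 32851 such windows, 1978 (6.02%) held the E-box, 4607 the REV-ERB and ROR core and 306 (0.931%) the D-box. The 6 stretches below are shown because they belong to clock genes of each arm whose values are given next, with the motif in capitals and each sequence read 5′ to 3′ on the strand of its gene. They lie at chr3:95882252-95882384 (minus strand) for Ciart, chr15:81811236-81811321 (plus) for Tef, chr6:145865559-145865613 (minus) for Bhlhe41, chr10:85185069-85185154 (minus) for Cry1, chr14:18239138-18239223 (minus) for Nr1d2 and chr4:151044776-151044910 (minus) for Per3, each upstream of the start and outside annotated exons.
Ciart, E-boxes at -116, -58 and -44: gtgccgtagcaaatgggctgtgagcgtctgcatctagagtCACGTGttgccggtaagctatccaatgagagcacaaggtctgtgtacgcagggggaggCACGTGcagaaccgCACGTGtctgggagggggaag
Tef, E-box at -138: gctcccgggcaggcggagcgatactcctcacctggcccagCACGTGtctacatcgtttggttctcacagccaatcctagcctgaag
Bhlhe41, E-box at -153: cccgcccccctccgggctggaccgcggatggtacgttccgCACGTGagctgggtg
Cry1, E-box at -60: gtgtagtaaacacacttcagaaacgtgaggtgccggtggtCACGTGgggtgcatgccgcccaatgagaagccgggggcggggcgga
Nr1d2, REV-ERB and ROR core at -77: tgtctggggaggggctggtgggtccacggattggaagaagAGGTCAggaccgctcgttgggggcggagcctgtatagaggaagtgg
Per3, D-boxes at -205 and -158: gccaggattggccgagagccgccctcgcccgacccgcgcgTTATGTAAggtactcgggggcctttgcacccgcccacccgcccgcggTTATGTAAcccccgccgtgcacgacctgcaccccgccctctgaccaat
None of the 3 motifs was found in these windows of Nr1d1, Dbp, Cry2, Hlf or Arntl, which says only that the letters are not in the 250 bases searched.

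The 7 libraries held between 4698271 and 8319236 reads counted on genes, and levels are given as CPM, the reads of a gene scaled to an equal total in every library. LH 8 h replicate 4 stood apart from the other 6. It had a score of 81.6 on the first principal component, which carried 47.2% of the variance, against -18.6 to -5.63 for the others. In 2377 genes it lay more than 2-fold from the mean of the other libraries of its group, against 534 to 788 genes for each other library. For LH 8 h replicates 1 to 3 that mean includes replicate 4. Results are therefore given with and without LH 8 h replicate 4. The share of counts on mitochondrial genes was 2.85% to 3.32% at 0 h and 1.53% to 1.98% at 8 h. The fibroblast collagens were present at fibroblast levels, with Col1a2 between 11280 and 22020 CPM, and the 12 fibroblast markers summed to 36550 to 41060 CPM at 0 h and to 26400 to 34390 CPM at 8 h, the lowest in replicate 4. Of markers of other cell types, the 6 skeletal muscle markers summed to under 1 CPM in every library and the 6 Schwann and melanocyte markers to at most 1.92 CPM. The 8 leukocyte markers summed to 16.4 to 23.6 CPM in 6 libraries and to 47.9 CPM in LH 8 h replicate 4, and the 6 endothelial markers, nearly all of them Kdr, to 130 to 198 CPM in 6 libraries and 35.7 CPM in that replicate. The 6 cartilage markers summed to 424 to 469 CPM at 0 h and 514 to 642 CPM at 8 h. The part of these differences in the results was not tested. In bulk RNA, fewer cells of a type and less RNA per cell cannot be told apart.

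Across 11489 genes with at least 1 CPM in 3 or more libraries, 6 genes, 0.0522% of those tested, passed a Benjamini-Hochberg adjusted p of 0.05 in the edgeR quasi-likelihood test, and 618 genes (5.38%) had an unadjusted p below 0.05. One of the 6 was higher at 8 h (0.0087%), the REV-ERB alpha gene Nr1d1. The other 5 were lower (0.0435%), the actin-binding protein gene Tagln, the latent TGF-beta binding protein gene Ltbp1, the matrix Gla protein gene Mgp, the imprinted retrotransposon-derived gene Peg10 and the mitochondrially encoded NADH dehydrogenase subunit gene mt-Nd4. These few calls depended on single libraries. Leaving out LH 8 h replicate 4 raised them to 99 of 11387 genes (0.869%), 36 higher (0.316%) and 63 lower (0.553%), with all 6 among them. The fits given below as without replicate 4 leave out that library alone and keep LH 0 h replicate 4. Leaving out replicate 4 of both groups gave 77 of 11246 genes, 26 higher and 51 lower. Leaving out LH 8 h replicate 3 left Tagln alone, and leaving out any of the other 5 left no gene, with 365 to 608 genes at an unadjusted p below 0.05. DESeq2 called 32 genes in the 7 libraries, 7 higher and 25 lower. An edgeR fit of the 7 libraries with the replicate number as a block called none.

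Nr1d1 lies on chromosome 11 (98767932 to 98775333, minus strand, mm10). Its level was 8.49, 21.3 and 11.9 CPM in LH 0 h replicates 2, 3 and 4, and 142, 162, 152 and 46.3 CPM in LH 8 h replicates 1 to 4. Every 8 h library was above every 0 h library, and replicate 4 was the lowest of its group. The means were 13.9 ± 6.64 CPM (SD, n = 3) and 125 ± 53.4 CPM (SD, n = 4), and the difference was 3.21 on the log2 scale (SE 0.44, adjusted p = 0.046, edgeR). Without replicate 4 it was 3.48 (SE 0.20, adjusted p = 6.0e-12, edgeR). The call over 7 libraries was lost with scaling by library totals (adjusted p = 0.0619, edgeR) and with robust dispersion (adjusted p = 0.182, edgeR). It was also lost with the replicate number fitted as a block (adjusted p = 0.111, edgeR). On leaving out any 1 of the other 6 libraries the adjusted p was 0.157 to 0.657 (edgeR). The last 1075 bases of Nr1d1 (chr11:98767932-98769006) overlap the end of Thra, a thyroid hormone receptor gene on the opposite strand. Thra stood at 405 to 416 CPM at 0 h and 405 to 638 CPM at 8 h. Whether the counting used strand is not given in the sources used here, and without strand the reads of the 2 genes cannot be told apart in that stretch.

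**Figure D1:**
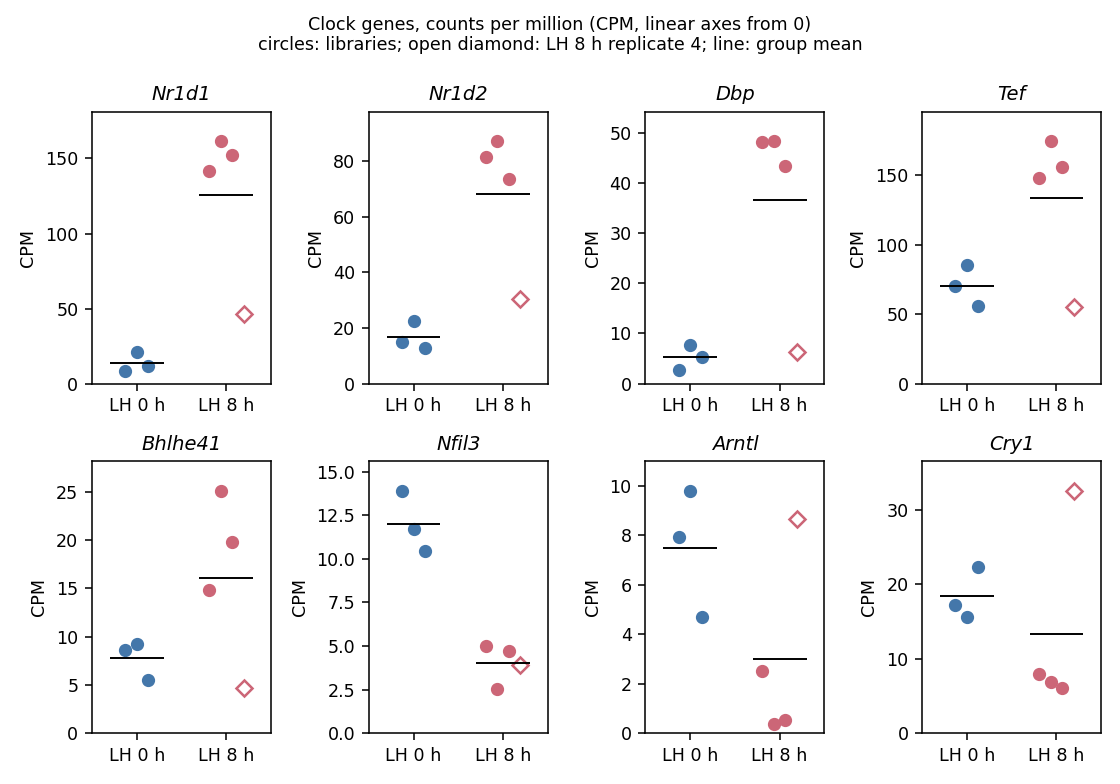
Levels of clock genes in CPM for LH 0 h (3 libraries) and LH 8 h (4 libraries), each point a library, the open diamond LH 8 h replicate 4 and the line the group mean. Nr1d1 stood at 8.49 to 21.3 CPM at 0 h and 46.3 to 162 CPM at 8 h, and the open diamond lay nearest to the 0 h libraries for Nr1d1, Nr1d2 and Dbp.

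The paralog Nr1d2, whose promoter carries the core letters shown above, was also lowest at 8 h in replicate 4. Its level was 15.2, 22.7 and 12.8 CPM at 0 h and 81.4, 87.3, 73.5 and 30.6 CPM at 8 h. The groups did not overlap, and the difference of 2.05 on the log2 scale (SE 0.33) did not pass the test (adjusted p = 0.109, edgeR). Without replicate 4 Nr1d2 rose by 2.27 (SE 0.17, adjusted p = 2.53e-09, edgeR).

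Of the 4 output factors of the bZIP family, Dbp and Tef were high in 3 of the 4 later libraries. Dbp stood at 2.64, 7.74 and 5.32 CPM at 0 h and at 48.1, 48.3, 43.3 and 6.30 CPM at 8 h. The first 3 of the later libraries lay far above the 0 h range and replicate 4 inside it. The difference was 2.84 (SE 0.62, adjusted p = 0.408, edgeR), and 3.20 (SE 0.25, adjusted p = 2.53e-09) without replicate 4. The last 737 bases of Dbp overlap Sphk2, on the opposite strand, which stood at 26.3 to 37.7 CPM over the 7 libraries. Tef stood at 70.3, 85.4 and 56.0 CPM at 0 h and at 148, 175, 156 and 55.1 CPM at 8 h, with replicate 4 below all 0 h libraries. Its difference was 0.95 (SE 0.31, adjusted p = 0.837, edgeR), and 1.19 (SE 0.13, adjusted p = 3.81e-06) without replicate 4. Nfil3, the repressor acting at the same D-box, went the other way in all libraries, replicate 4 included. It stood at 13.9, 11.7 and 10.4 CPM at 0 h and at 4.99, 2.52, 4.73 and 3.94 CPM at 8 h. Its difference of -1.52 (SE 0.31) did not pass the test over 7 libraries (adjusted p = 0.329, edgeR) and passed it without replicate 4 at -1.56 (SE 0.32, adjusted p = 0.00961).

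The activator gene Arntl and the repressor gene Cry1, both known REV-ERB targets, were low in the first 3 later libraries only. Arntl stood at 7.93, 9.80 and 4.68 CPM at 0 h and at 2.50, 0.361, 0.556 and 8.66 CPM at 8 h, where the last value is that of replicate 4 and lies within the 0 h range. Cry1 stood at 17.3, 15.6 and 22.4 CPM at 0 h and at 8.02, 6.85, 6.12 and 32.6 CPM at 8 h, so that replicate 4 was the highest of all 7. Neither passed over the 7 libraries, with differences of -1.21 (SE 0.86) for Arntl and -0.35 (SE 0.59) for Cry1. Without replicate 4 Arntl fell by 2.80 (SE 0.55, adjusted p = 0.00533, edgeR) and Cry1 fell by 1.38 (SE 0.25, adjusted p = 0.00232, edgeR).

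Of the remaining repressors of the loop, none passed over 7 libraries. Bhlhe41 (DEC2), a repressor that binds the E-box, stood at 8.63, 9.28 and 5.53 CPM at 0 h and at 14.8, 25.1, 19.8 and 4.72 CPM at 8 h. It passed only without replicate 4, at 1.35 (SE 0.25, adjusted p = 0.00293, edgeR). Ciart, a repressor of CLOCK and BMAL1 with 3 E-boxes in the stretch above, was near the detection limit, listed at 0, 0 and 0.638 CPM at 0 h and at 1.96, 1.56, 1.95 and 0.63 CPM at 8 h. Cry2 stood at 7.45 to 9.11 CPM at 0 h and 9.45 to 18.4 CPM at 8 h without overlap, one of the 324 genes (2.82%) that were higher in every later library, with a difference of 0.65 (SE 0.27, adjusted p = 0.866, edgeR). Counts on annotated Per2, whose protein carries the luciferase fusion, were low throughout, at 1.11 to 2.34 CPM at 0 h and 0.472 to 2.32 CPM at 8 h. Only the 3′ ends of transcripts were read, and the share of fusion transcripts counted as Per2 was not tested. Per3, with its D-boxes, spread from 1.42 to 17.1 CPM at 8 h around the 3.41 to 4.87 CPM of 0 h. Per1 stood at 5.29 to 8.09 CPM at 0 h and 6.68 to 9.09 CPM at 8 h. Of the 4 clock lists, 1 of 8 tested repressors passed over 7 libraries, and none of 7 activators, ROR and DEC genes, 4 output factors or 7 kinases and ligases, against 0.0522% of all genes. Without replicate 4 the count was 2 higher and 1 lower among repressors, 1 higher and 1 lower among activators, ROR and DEC genes, 2 higher and 1 lower among output factors and none among kinases and ligases, against 0.316% of all genes higher and 0.553% lower. Bhlhe40 (DEC1) stood at 5.96 to 7.22 CPM at 0 h and 5.20 to 10.99 CPM at 8 h, a difference of 0.33 (SE 0.29). The other 12 members differed by -0.43 to 0.83 on the log2 scale.

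The genes lower at 8 h were led by Tagln (transgelin), a marker of contractile fibroblasts and a target of SRF. It stood at 236.1, 231.4 and 274.1 CPM at 0 h and at 87.0, 80.8, 98.8 and 74.2 CPM at 8 h. All 4 later libraries lay far below the earlier ones, and replicate 4 did not stand out. Tagln fell by 1.49 on the log2 scale (SE 0.14, adjusted p = 0.00905, edgeR). Smooth muscle actin (Acta2) stood at 423, 565 and 638 CPM at 0 h and at 280, 250.7, 262.5 and 116 CPM at 8 h, without overlap. Calponin (Cnn1) stood at 66.5, 73.2 and 71.5 CPM at 0 h and at 24.4, 33.1, 41.3 and 20.0 CPM at 8 h, also without overlap. Neither passed over 7 libraries, with adjusted p values of 0.332 for Acta2 and 0.191 for Cnn1 (edgeR), and both passed without replicate 4, at -1.02 (SE 0.13) and -1.08 (SE 0.16). Among 21 tested SRF and actin targets, 1 fell over 7 libraries and 5 fell without replicate 4 (Tagln, Acta2, Cnn1, Tpm1 and Tpm2), against 0.0435% and 0.553% of all genes. None rose by the adjusted test, and the median difference was -0.18 against 0.01 over all genes tested. Without replicate 4 the median was -0.04, with 12 of 21 genes negative, 3 higher and 6 lower at an unadjusted p below 0.05 (5.06% and 5.11% of all genes). The summed level of this list was 13970 to 16140 CPM in 6 libraries and 7569 CPM in replicate 4. Tagln and Pcsk7, at a mean of 5.25 CPM, overlap over 108 bases on opposite strands.

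A pair of matrix genes fell over 7 libraries. Ltbp1, which tethers latent TGF-beta in the matrix, stood at 537, 535 and 502 CPM at 0 h and at 286.7, 265, 285 and 231.8 CPM at 8 h. It fell by 0.92 (SE 0.11, adjusted p = 0.0379, edgeR). Mgp, an inhibitor of calcification, stood at 321, 378 and 291.2 CPM at 0 h and at 176, 168, 147 and 137 CPM at 8 h. It fell by 1.01 (SE 0.13, adjusted p = 0.0379, edgeR). In both genes the groups were clearly separate, as they were in 658 genes (5.73%) that were lower in every later library. Of 37 tested matrix glycoproteins and proteoglycans, 2 fell over 7 libraries (Ltbp1 and Mgp) and 5 without replicate 4, against 0.0435% and 0.553% of all genes, with a median difference of 0.03 (-0.02 without replicate 4). The 5 included Spon2 at -1.05 (SE 0.18), the basement membrane nidogen gene Nid1 at -0.75 (SE 0.12) and tenascin C (Tnc), named after its values were seen, at -2.08 (SE 0.21). Tnc stood at 27.8, 42.3 and 44.7 CPM at 0 h and at 8.91, 10.1 and 7.65 CPM in the first 3 later libraries, but at 67.2 CPM in replicate 4. The metalloproteinase inhibitor gene Timp1 stood at 255.6, 360 and 367 CPM at 0 h and at 134, 132, 147 and 161 CPM at 8 h, missed the threshold over 7 libraries (-1.12, SE 0.17, adjusted p = 0.0937, edgeR) and passed it without replicate 4 (-1.23, SE 0.13). Of 18 tested collagen chains none passed over 7 libraries, where 4 had an unadjusted p below 0.05, all lower (2.66% of all genes). Without replicate 4, 2 fell (0.553% of all genes), Col4a1 at -0.65 (SE 0.12) and Col6a3. The major fibrillar chains Col1a1 and Col1a2 differed by -0.40 (SE 0.14) and -0.34 (SE 0.12) and did not pass.

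**Figure D2:**
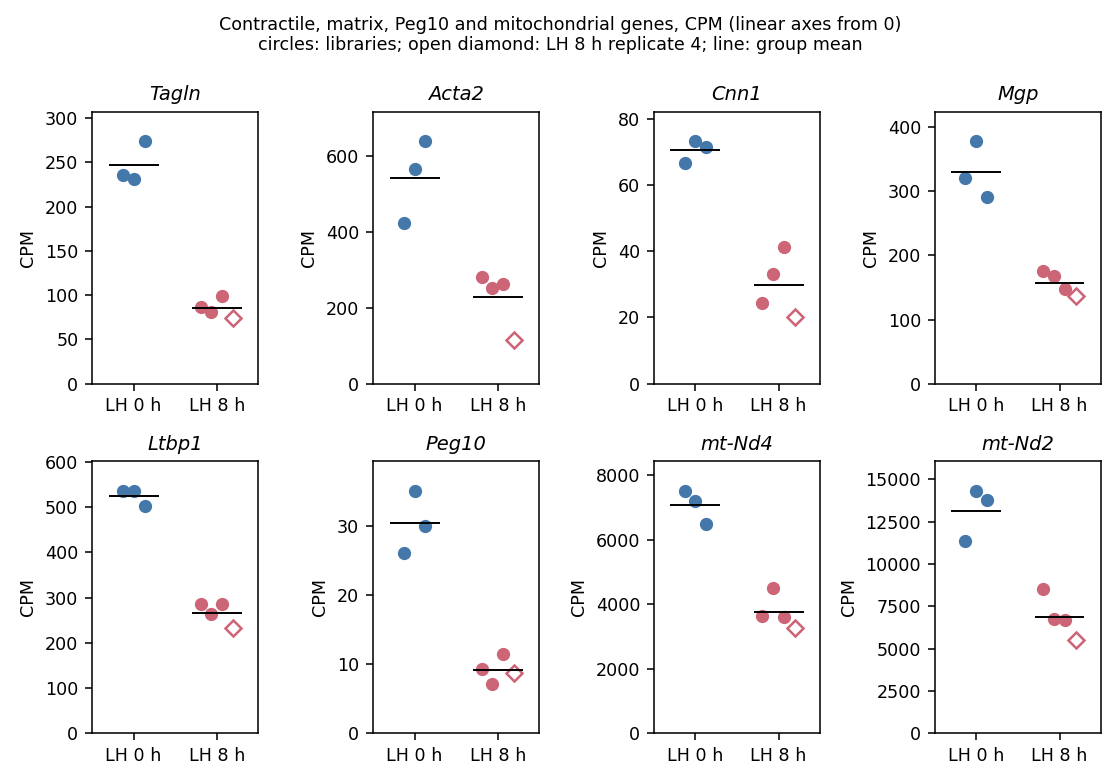
Levels in CPM of 8 genes that were lower at LH 8 h, each point a library, the open diamond LH 8 h replicate 4 and the line the group mean, on linear axes that start at 0. In all 8 panels each 8 h library lies below each 0 h library, with Tagln at 231.4 to 274.1 CPM at 0 h and 74.2 to 98.8 CPM at 8 h.

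Peg10, an imprinted gene derived from a retrotransposon, stood at 26.0, 35.1 and 30.0 CPM at 0 h and at 9.27, 7.09, 11.4 and 8.66 CPM at 8 h. It fell by 1.68 (SE 0.22, adjusted p = 0.0379, edgeR), the largest fall among the 5 lower genes called. Of 12 tested genes encoded in mitochondrial DNA, 1 fell over 7 libraries, against 0.0435% of all genes. The subunit gene mt-Nd4 (mitochondrial genome, 10167 to 11544, plus strand) stood at 7530, 7194 and 6504 CPM at 0 h and at 3652, 4504, 3611 and 3257 CPM at 8 h, and fell by 0.86 (SE 0.11, adjusted p = 0.0379, edgeR). mt-Nd2 stood at 11330, 14330 and 13750 CPM at 0 h and at 8529, 6759, 6678 and 5514 CPM at 8 h. It missed the threshold over 7 libraries (-0.88, SE 0.14, adjusted p = 0.0937, edgeR). Of the 12, 7 were lower at an unadjusted p below 0.05, against 2.66% of all genes, and 4 fell without replicate 4 (mt-Nd4, mt-Nd2, mt-Cytb and mt-Nd1), against 0.553% of all genes. The median difference of the 12 was -0.57, and -0.53 without replicate 4. Nuclear copies of mitochondrial sequence can share reads with these genes, so their counts are uncertain to that extent. The 48 tested nuclear genes of the respiratory chain had a median of -0.07, with no adjusted call and 1 gene, lower, at an unadjusted p below 0.05.

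Of 38 tested genes of DNA replication and S phase, none passed over 7 libraries and 2 fell without replicate 4 (0.553% of all genes). At an unadjusted p below 0.05, 8 were lower, against 2.66% of all genes, and none higher, and the median difference was -0.28. The helicase subunit gene Mcm5 stood at 22.7, 32.5 and 38.7 CPM at 0 h and at 11.6, 11.9, 11.4 and 14.5 CPM at 8 h. It fell by 1.41 without replicate 4 (SE 0.21, adjusted p = 3.17e-04, edgeR). Cyclin E2 (Ccne2), which drives entry into S phase, stood at 16.4, 16.2 and 17.5 CPM at 0 h and at 6.42, 6.85, 10.7 and 2.99 CPM at 8 h, and fell by 1.04 without replicate 4 (SE 0.25, adjusted p = 0.0408, edgeR). Ccne2 overlaps Ints8, on the opposite strand, over 5622 bases. Of 50 tested mitosis genes, none had even an unadjusted p below 0.05.

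Of the 36 genes that rose without replicate 4, 5 belong to the clock lists (Nr1d1, Nr1d2, Dbp, Tef and Bhlhe41) and 31 do not. Over 7 libraries Nr1d1 was the 1 gene that rose. Besides Nr1d1, the other 9 of the 10 genes with the smallest p in that direction did not pass over 7 libraries. They were Nr1d2, Dbp, Ddx17, Mturn, Fabp5, Nbl1, Slc24a3, Tacc1 and Egr1, with differences of 0.44 (Tacc1) to 2.84 (Dbp). Egr1, an immediate early transcription factor gene, stood at 14.1, 12.9 and 13.6 CPM at 0 h and at 31.4, 25.8, 24.1 and 59.7 CPM at 8 h, without overlap. It rose by 1.01 without replicate 4 (SE 0.20, adjusted p = 0.00564, edgeR). Klf4 stood at 52.2 to 61.8 CPM at 0 h and at 92.5, 97.4, 80.4 and 437 CPM at 8 h, the last in replicate 4, and rose by 0.69 without that library (SE 0.13, adjusted p = 0.00514). Of 22 tested immediate early genes, 5 were higher and 2 lower at an unadjusted p below 0.05 over 7 libraries, against 2.72% and 2.66% of all genes, none with an adjusted call. Without replicate 4 the counts were 3 higher and 1 lower, against 5.06% and 5.11% of all genes, and the median difference went from 0.39 to 0.08. By the adjusted test 2 rose without replicate 4, Egr1 and Klf4 (0.316% of all genes). The RNA helicase gene Ddx17 stood at 69.7, 54.5 and 47.5 CPM at 0 h and at 103, 101, 109 and 83.5 CPM at 8 h, and rose by 0.87 without replicate 4 (SE 0.14, adjusted p = 6.6e-04, edgeR). The ligand gene Tgfb2 stood at 277.7, 203 and 236.5 CPM at 0 h and at 372, 379, 369 and 834 CPM at 8 h, and rose by 0.65 without replicate 4 (SE 0.12, adjusted p = 0.00276, edgeR). The interferon-induced gene Ifit3 stood at 16.0, 18.1 and 23.0 CPM at 0 h and at 33.7, 44.8, 30.8 and 141 CPM at 8 h, and rose by 0.96 without replicate 4 (SE 0.19, adjusted p = 0.00677, edgeR). Of 18 tested interferon and MHC class I genes, 6 were higher (2.72% of all genes) and none lower (2.66% of all genes) at an unadjusted p below 0.05 over 7 libraries, and without replicate 4 5 were higher and none lower (5.06% and 5.11% of all genes), of which Ifit3 rose by the adjusted test (0.316% of all genes).

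Genes of the pathways that read glucose and insulin were also counted. The media of the cycles differed in glucose and insulin, and the LH 0 h and LH 8 h libraries came after the same cycles. Of 23 tested insulin and IGF genes 1 was lower at an unadjusted p below 0.05, of 19 glycolysis and glucose transport genes 1 was higher, of 32 sterol and fatty acid synthesis genes 1 was lower, and none of 4 MondoA genes did so. None had an adjusted call over 7 libraries. Of the 32 sterol and fatty acid synthesis genes, 25 had a negative difference, against 5554 of all 11489 genes tested. Their median was -0.14, against 0.01 over all genes tested. Of these 32 genes, 5 were lower in every later library (5.73% of all genes), as were 2 insulin and IGF genes and 1 glycolysis gene. Without replicate 4 the glycolysis list had 1 adjusted call, lower (0.553% of all genes), which was Ldha, named after its value was seen, with 2 genes higher and 4 lower at an unadjusted p below 0.05 (5.06% and 5.11% of all genes), 17 of 19 negative and a median of -0.27 against -0.04 over 7 libraries. Over all genes tested in the 7 libraries, 2.72% were higher and 2.66% lower at an unadjusted p below 0.05. Of stress and housekeeping lists, 1 of 22 ATF4 genes and 2 of 17 heat shock chaperones were higher and 1 of 53 cytosolic ribosomal proteins and 1 of 31 proteasome subunits lower at that level, with no adjusted call with or without replicate 4.

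The same 0 h and 8 h collections exist for HH (4 and 3 libraries) and for HL (3 and 3, also taken by number), which share no library with LH. Fitted on its own, HH had 554 of 11573 genes called (4.79%), 306 higher (2.64%) and 248 lower (2.14%), and HL had 8 of 11405 (0.0701%). In a joint model of all 3 protocols, whose spread is shared and includes LH 8 h replicate 4, HH had 23 of 12337 genes called (0.186%) and HL 35 (0.284%). In HH alone Nr1d1 rose by 3.56 (SE 0.13), Nr1d2 by 2.21 (SE 0.15) and Dbp by 3.17 (SE 0.24), and Tagln fell by 1.44 (SE 0.11), Mgp by 1.16 (SE 0.11) and Peg10 by 1.58 (SE 0.21). In HL alone Nr1d1 rose by 3.83 (SE 0.28), Dbp by 4.17 (SE 0.31) and Nr1d2 by 2.58 (SE 0.24), and Tagln fell by 1.61 (SE 0.17). Of the 36 genes that rose in LH without replicate 4, 35 were tested in HH, and 33 had the same sign there (48.6% of all genes). Of these 24 also had an unadjusted p below 0.05, against 8.55% of all genes in that direction. Of the 63 that fell, 61 had the same sign in HH (51.4% of all genes) and 54 an unadjusted p below 0.05, against 8.32%. In HL the counts were 31 of 36 and 60 of 63 with the same sign (50.8% and 49.2% of all genes). Of these 15 and 39 had an unadjusted p below 0.05, against 2.88% and 2.92%. Of the genes given one by one that passed in LH without replicate 4, Mturn, Klf4, Slc24a3, Tacc1 and Col4a1 passed in neither HH nor HL alone. Mturn stood at 4.31, 6.19 and 8.30 CPM at 0 h and at 18.2, 20.8, 16.7 and 10.4 CPM at 8 h, changed by 1.60 without replicate 4 (SE 0.26), and differed by 0.39 (SE 0.27) in HH and -0.11 (SE 0.48) in HL. In the joint model of all 3 protocols, its LH change minus its HH change was 1.06 (SE 0.53) and did not pass the test.

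**Figure D3:**
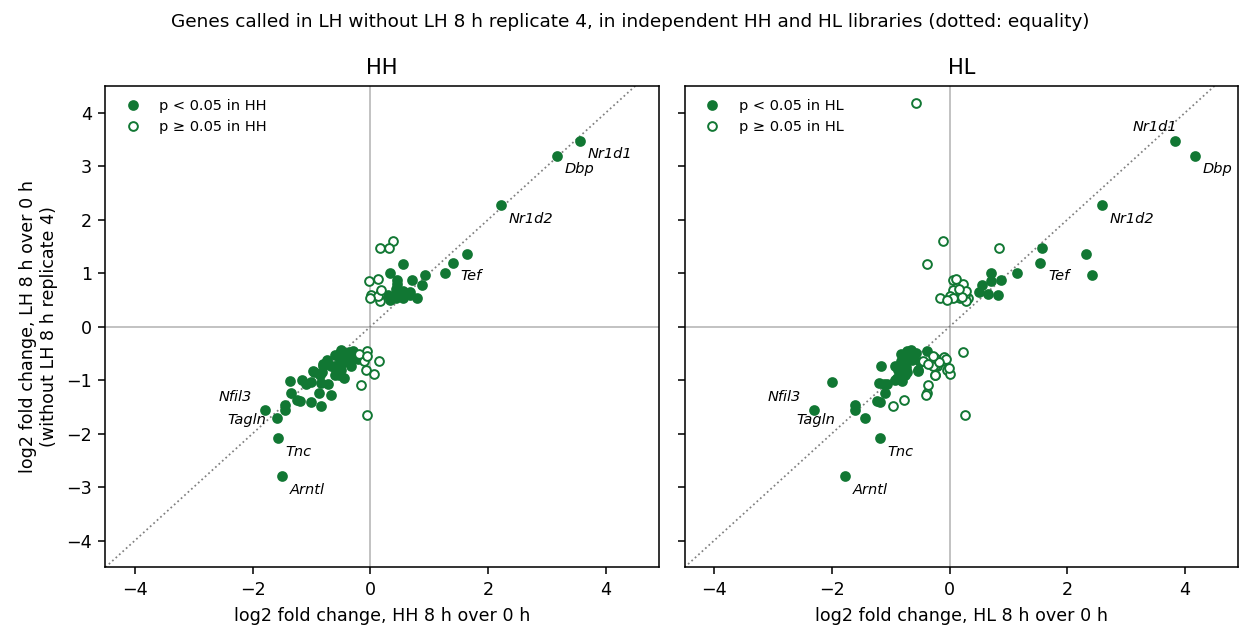
Log2 fold change from 0 h to 8 h in LH without replicate 4 (vertical) against that in HH (left) and HL (right) for the 99 genes called in LH, fitted on libraries that are not shared. Filled points had an unadjusted p below 0.05 in the other protocol. In HH 33 of the 35 higher genes tested and 61 of the 63 lower genes had the same sign (48.6% and 51.4% of all genes).

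A joint model of the 20 libraries tested the difference between protocols directly over 12337 genes. No gene had an adjusted p below 0.05 for the LH change minus the HH change, with 369 genes (2.99%) at an unadjusted p below 0.05, and none for LH minus HL, with 572 (4.64%), in edgeR, and DESeq2 also called none. The estimate for Nr1d1 was -0.35 (SE 0.44) against HH and -0.61 (SE 0.46) against HL, for Dbp -0.33 (SE 0.67) and -1.31 (SE 0.70), and for Tagln -0.05 (SE 0.19) and 0.13 (SE 0.20). A p that misses the threshold here does not show that the protocols acted alike, since the SE of the difference reached 0.70 for Dbp.

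Over the 6 collections the arms of the loop took different courses. In LH the mean level of Nr1d1 was 13.9, 37.6, 125, 87.9, 22.7 and 25.2 CPM at 0, 4, 8, 12, 16 and 20 h, with 1 library at 16 h. Without replicate 4 the LH means at 8, 12 and 20 h were 152, 91.4 and 12.6 CPM, the last because replicate 4 stood at 63.0 CPM at 20 h. In HH the means over all replicates were 12.9, 43.1, 157, 98.3, 29.9 and 10.9 CPM. The highest mean of Nr1d1 was therefore at 8 h in both. Dbp was highest later, at 12 h, with means of 5.23, 8.04, 36.5, 68.1, 18.0 and 9.66 CPM in LH. Nfil3 had its lowest means at 8 and 12 h and returned by 20 h, with 12.0, 11.7, 4.05, 4.29, 5.60 and 12.7 CPM in LH. The 5 genes called lower took different courses. Tagln in LH had means of 247.2, 119, 85.2, 83.9, 106 and 91.4 CPM, and Peg10 of 30.4, 14.6, 9.11, 9.26, 8.85 and 8.88 CPM, so that both were highest at the first collection and had not returned at 20 h. Without replicate 4 the means at 20 h were 113 CPM for Tagln and 9.22 CPM for Peg10. In HH Tagln had means of 290.6, 131, 110, 103, 137 and 85.2 CPM. mt-Nd4 in LH had means of 7076, 5543, 3756, 3724, 3541 and 4776 CPM. Ltbp1 in LH, whose 8 h libraries are given above, had means of 524, 304, 305, 235.9 and 407 CPM at 0, 4, 12, 16 and 20 h, and without replicate 4 it was back to 476 ± 33.9 CPM (SD, n = 3) at 20 h. Mgp in LH had means of 329.9, 324, 157, 132, 52.8 and 165.5 CPM at 0, 4, 8, 12, 16 and 20 h. In HL Ltbp1 stood at 437 CPM at 0 h, 260 CPM at 8 h and 413 CPM at 20 h, and mt-Nd4 at 4871, 2871 and 4809 CPM.

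**Figure D4:**
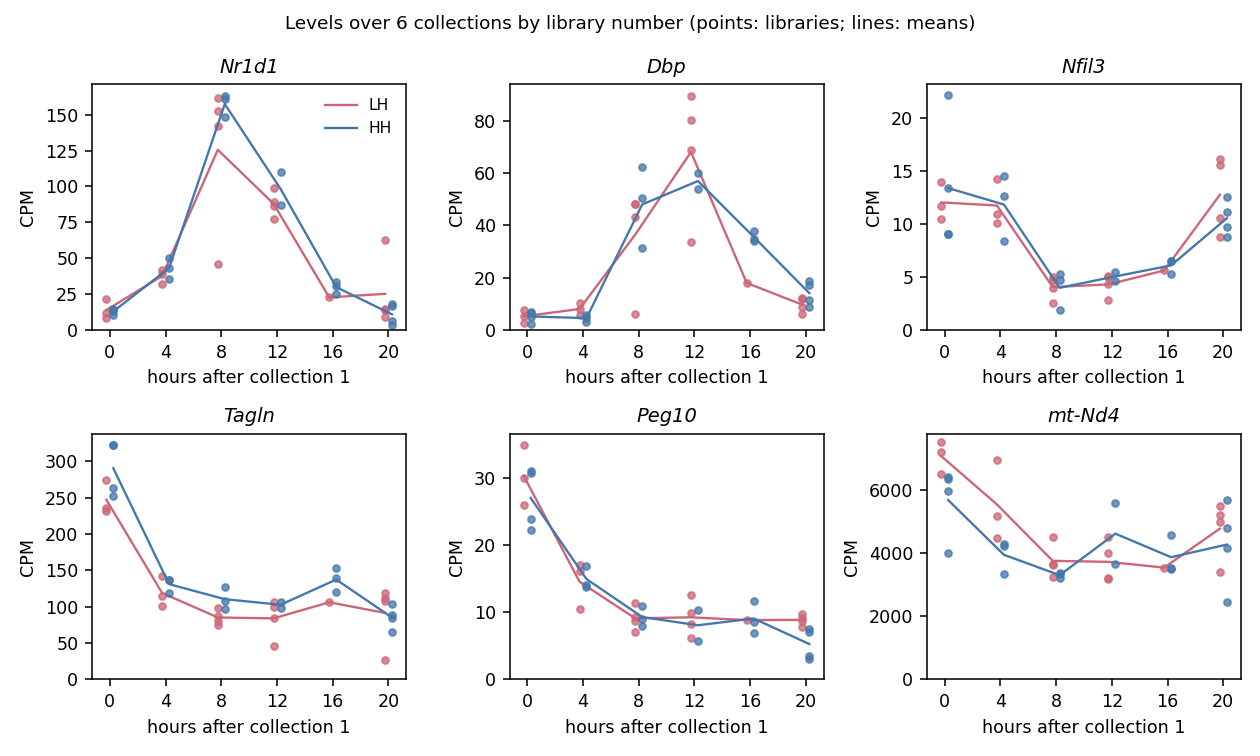
Level in CPM of 6 genes at each of the 6 collections under LH (red) and HH (blue), by hours after the first collection, on linear axes from 0, with points for libraries and lines through the means. Nr1d1 peaks at 8 h in LH (125 CPM) and HH (157 CPM), while Tagln drops from 247.2 CPM at 0 h in LH and stays between 83.9 and 119 CPM from 4 h on.

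LH 8 h replicate 4 differed from its group in many genes outside the clock, of which Hspa4l, Osr1, Nupr1 and Ereg are given here. Nupr1 is named by the rule, and the others were chosen after their values were seen. Hspa4l, a chaperone of the HSP110 family, stood at 129, 130 and 101 CPM in the other LH 8 h libraries and at 2234 CPM in replicate 4. Osr1, a transcription factor gene of connective tissue, stood at 309, 260 and 311 CPM and at 19.2 CPM in replicate 4. Replicate 4 of LH 12 h and of LH 20 h had 1219 and 4028 CPM for Hspa4l and 18.2 and 19.1 CPM for Osr1. By the numbering that defines the groups, replicate 4 was also the highest for Hspa4l in 14 of the 14 other combinations of protocol and collection with such a library, and the lowest for Osr1 in 14 of 14. It was the highest for Nupr1 in 13 and for Ereg in 11 of the 14, and the lowest for Ereg in 1. By the numbering in the titles, replicate 4 was the highest for Hspa4l in 6 of 17 combinations, the lowest for Osr1 in 7 of 17, the highest for Nupr1 in 5 of 17 and the highest for Ereg in 3 of 17. The 5 nuclear-retained RNAs summed to 19210 CPM in LH 8 h replicate 4 and to 6940 to 8738 CPM in the other 6 libraries, and the part of this difference in the results was not tested. Within the group the count of genes in which a single library lay far from the other 3 was 977 (8.5%) for replicate 4 and 81 to 93 (0.705% to 0.81%) for the others.

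**Figure D5:**
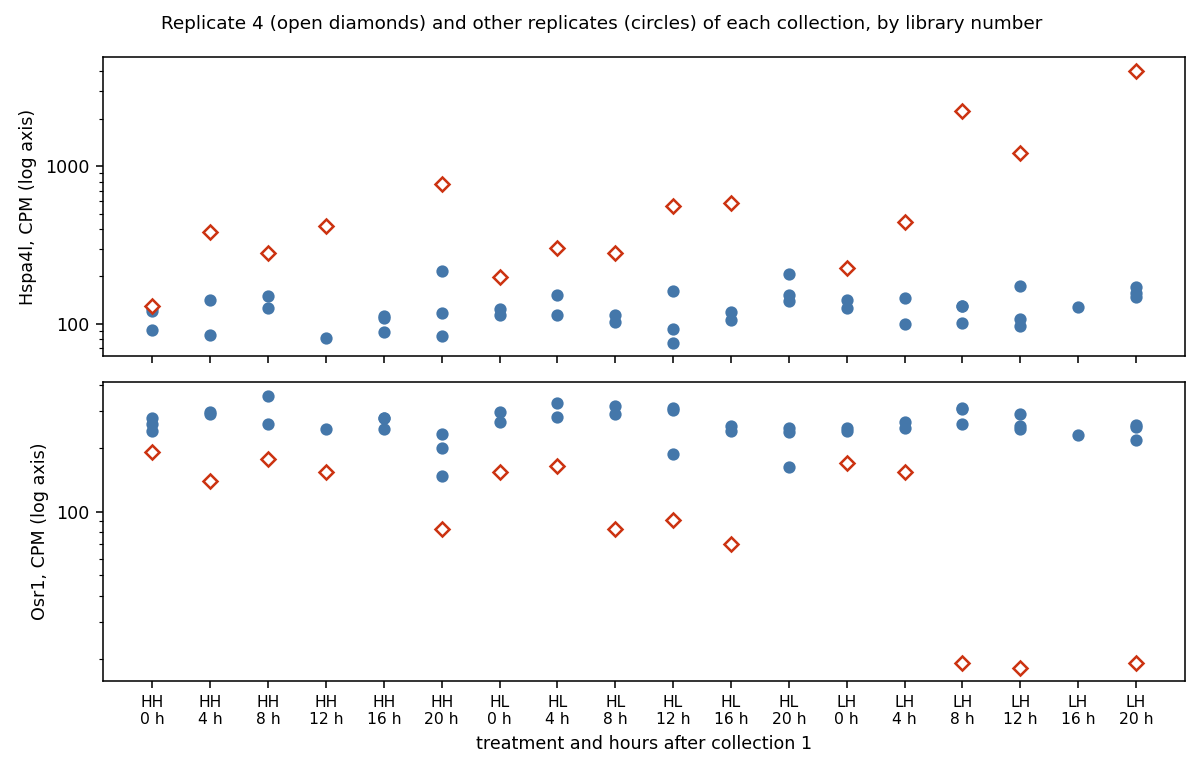
Level of Hspa4l and Osr1 in CPM on a logarithmic axis in each library of each protocol and collection, with replicate 4 by library number as open diamonds and the other replicates as circles. LH 8 h replicate 4 has the values 2234 CPM for Hspa4l and 19.2 CPM for Osr1.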

How the data were processed

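Libraries were made by 3′DGE, which reads the 3′ ends of transcripts. The authors aligned reads to mm10 (STAR 2.6.0a) and deposited raw counts of unique reads per gene (HTSeq 0.9.1). Counts were given per sequencing run, and the 2 runs of each library were summed (3 of the 62 libraries, none of these 7, had 1 run). Of 31053 gene identifiers, 30934 matched GENCODE M21. Reads on no feature (19.55% to 27.77% of the reads of the 7 libraries) were left out of totals and tests. Two-sided quasi-likelihood tests in edgeR 4.0.16 (R 4.3.3, TMM scaling, at least 1 CPM in 3 libraries) were adjusted by Benjamini-Hochberg over all genes tested, with DESeq2 1.42.0 as an alternative. The fits were also run on simulated data, in which no library was set apart from its group, and no result here rests on that run. SE is the absolute log2 fold change divided by the root of F. Named genes were the tested members of the clock lists, the 10 genes with the smallest p in each direction, and up to 4 members with the smallest p of each of the other lists (41 lists in all). Members, lists and rule were chosen with earlier results of these data known.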

Additional observations from a re-analysis of the deposited data

Results flagged for a closer look

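Of 60 genes examined, 17 had 1 LH 8 h library set apart. Its gap to the nearest of the other 3 exceeded Dixon's critical share of the range of the group, which chance gives in about 1 in 20 groups. Over all genes tested, replicate 4 was set apart in 8.5% and each of the others in 0.705% to 0.81%. Tnc, Hspa4l, Ereg, Cryab and Ier3 were chosen after their values in replicate 4 were seen, and Sphk2 for its overlap with Dbp, so the 17 are a description. Among the 51 genes that the naming rule gives, itself based on these libraries, 11 did so, all by replicate 4. In 16 of the 17 that library was replicate 4, higher than the rest in 15. Its level was 6.30 CPM for Dbp, where the others had a median of 48.1 CPM. It was 32.6 CPM for Cry1 and 14.5 CPM for Mcm5, against medians of 6.85 and 11.6 CPM. For signalling and matrix genes it was 834 CPM for Tgfb2, 437 CPM for Klf4, 141 CPM for Ifit3 and 67.2 CPM for Tnc, against medians of 372, 92.5, 33.7 and 8.91 CPM. The receptor gene Rora stood at 501 CPM against 143 CPM. For stress-related genes it was 2234 CPM for Hspa4l, 1622 CPM for Hsph1, 1515 CPM for Cryab, 1017 CPM for Nupr1, 1044 CPM for Hif1a and 568 CPM for Sgk1, against medians of 129, 143, 144, 45.8, 157 and 74.7 CPM. Ereg stood at 1069 CPM against 10.4 CPM, and Ier3 at 2621 CPM against 145 CPM. In the remaining gene, Sphk2, replicate 3 stood at 37.7 CPM against a median of 26.6 CPM.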

How the results depend on the processing

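The count of 6 genes was 5 or 6 with RLE size factors, library totals, 2 other filters, either run alone, thinned counts or robust dispersion, and 4 with a 2-fold minimum. Nr1d1 was not among them with library totals (where Timp1 passed instead) or robust dispersion. The count was 32 with DESeq2, 12 with no filter beyond 1 count, 17 with all listed libraries in 1 fit, and 140 at an unadjusted p below 0.01. Leaving out 1 library gave 0 to 99. With only the later libraries titled collection 4 it was 66, with those titled collection 5 it was 0 (802 unadjusted), and with the other libraries that the titles place in the groups 216. After replicate 4 was seen to stand apart, leaving out every replicate 4 gave 77. The replicate numbers were not taken as pairs, since the same-number correlations of deviations were -0.001, 0.08 and 0.157 for replicates 2, 3 and 4. The replicate block gave 0 (560 unadjusted), with Nr1d1 at 3.09 (adjusted p = 0.111, edgeR), and 59 without LH 8 h replicate 4.

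In the joint model HH had 23 called genes and HL 35. DESeq2 gave 48 and 71, no filter 113 and 141, the replicate block 64 and 60, each protocol alone 554 and 8, leaving out 1 LH library 19 to 58 and 28 to 84, and DESeq2 leaving out LH 8 h replicate 4 163 and 159. HL had 67 without every replicate 4. LH minus HH and LH minus HL stayed at 0 under the other settings and were 23 and 39 with no filter, and 0 to 0 on leaving out 1 library.

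By titles 23 genes turned direction, to 0.23 for Mgp, 0.30 for Peg10, 0.41 for Timp1, 1.49 for Mcm5, 1.62 for Spon2, 0.26 for Acta2, -0.48 for Mturn, 0.35 for Col4a1, 0.41 for Nid1, -0.40 for Fabp5, -0.06 for Tacc1, -0.87 for Egr1, -1.30 for Egr3, 0.029 for Ccne2, 0.80 for Mcm2, -0.44 for Tgfb2, -1.45 for Ifit3, -0.077 for Tef, -0.16 for Klf4, 0.18 for Col1a2, 0.52 for Col1a1, -0.37 for Cry2 and 0.58 for Tnc. With only collection 5 by title Tnc was 0.14 and Cry1 0.23. Per2, at -0.14, was 0.51 with the first run alone, 0.10 thinned, 0.11 without LH 0 h replicate 4, 0.14 without LH 8 h replicate 4, 0.32 with collection 4 by title, 0.39 without every replicate 4 and 0.24 with the block and no LH 8 h replicate 4. The cause of these changes was not tested. Per2 and Ciart rest on few reads, which limits what can be said of them.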
